A study of Mus musculus with 23 samples.

Results

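The mitochondrial ribosomal protein genes of mouse brain were examined in 23 libraries from an RNA sequencing study of foot-shock, in which a mouse receives brief electric current through the cage floor. The genes were chosen by name and not by their response, though with earlier results of these data known. They were every protein-coding symbol that starts with Mrpl or Mrps followed by a digit. Pseudogene names were left out, and a mean of at least 10 normalized counts over the libraries was required. All 78 such genes in the table had a mean over that minimum, out of 18578 genes in all, of which 17118 were tested. Of the 78, 49 carry large-subunit names (Mrpl) and 29 carry small-subunit names (Mrps). Their means ran from 123 to 1813 normalized counts.

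The 4 groups were wild type without shock (WT control, 6 libraries), wild type with foot-shock (WT shock, 5), heterozygous without shock (HT control, 6) and heterozygous with foot-shock (HT shock, 6). Heterozygous animals carry 1 edited Grin2b allele named C456Y, a change in the GluN2B subunit of the NMDA receptor. All groups were male C57BL/6J mice. The sample labels give postnatal day 17 whereas the series text speaks of adults, and the brain region is not named. How long after shock the tissue was taken is not stated in the labels.

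The mitochondrial ribosome translates the few proteins that mitochondrial DNA encodes, all of them core subunits of the respiratory chain and ATP synthase. Its ribosomal RNA comes from the mitochondrial genome, while its proteins are encoded in the nucleus, made in the cytosol and imported. Their supply therefore has to be matched between both genomes and over genes scattered across many chromosomes, and defects in single members are a known cause of childhood disease of brain, heart and muscle. In brain most of the energy drawn from respiration goes to signalling at synapses. A few names mislead: Mrps30 and Mrps18a sit in the large subunit, and Mrps36 is now regarded as a part of the 2-oxoglutarate dehydrogenase complex.

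The members lie on 17 chromosomes. Promoters are shown for 4 of the 5 genes that passed the test described further on. Whether promoters had a part in the members' levels was not tested. The sequences are the 250 bases before each gene's start in RefSeq (GRCm38.p6), written 5′ to 3′ on the strand of the gene, and capitals mark the motifs named after them. The windows are chr3:32736756-32737005 (minus strand) for Mrpl47, chr11:120484387-120484636 (plus) for Mrpl12, chr6:125191950-125192199 (plus) for Mrpl51 and chr3:95871515-95871764 (minus) for Mrps21. Mrpl38 is the fifth. RefSeq and GENCODE place some starts differently: the windows of Mrpl47 and Mrpl51 lie inside the GENCODE spans given for these genes further on, and those of Mrpl12 and Mrps21 overlap the GENCODE starts.
Mrpl47: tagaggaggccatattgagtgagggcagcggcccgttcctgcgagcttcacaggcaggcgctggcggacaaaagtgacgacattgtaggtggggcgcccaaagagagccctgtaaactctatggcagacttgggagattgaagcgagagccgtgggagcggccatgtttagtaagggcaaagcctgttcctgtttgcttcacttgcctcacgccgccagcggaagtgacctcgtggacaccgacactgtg
Mrpl12: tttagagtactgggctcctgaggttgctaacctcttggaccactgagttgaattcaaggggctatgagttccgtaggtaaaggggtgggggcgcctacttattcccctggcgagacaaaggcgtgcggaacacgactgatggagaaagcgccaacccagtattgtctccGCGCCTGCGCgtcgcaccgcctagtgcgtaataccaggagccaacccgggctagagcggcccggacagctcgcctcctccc
Mrpl51: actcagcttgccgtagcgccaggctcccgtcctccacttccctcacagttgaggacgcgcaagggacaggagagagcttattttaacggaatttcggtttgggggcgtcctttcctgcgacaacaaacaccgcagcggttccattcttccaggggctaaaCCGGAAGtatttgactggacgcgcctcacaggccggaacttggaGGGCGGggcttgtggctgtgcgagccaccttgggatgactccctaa
Mrps21: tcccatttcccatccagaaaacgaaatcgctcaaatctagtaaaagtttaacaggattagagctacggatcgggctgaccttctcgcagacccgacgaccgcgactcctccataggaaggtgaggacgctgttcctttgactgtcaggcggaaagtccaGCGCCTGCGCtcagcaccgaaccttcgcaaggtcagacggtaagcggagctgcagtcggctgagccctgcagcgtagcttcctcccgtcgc

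Motifs were searched by their letters on both strands: CCGGAAG (the ETS motif that GABP binds), the NRF1 motif, a string of 10 letters with 1 free position, GGGCGG (the GC box), AAGATGGCG (the YY1 motif), CACGTG (the E-box) and CCAAT. None of these strings contains another. GABP and NRF1 are known regulators of nuclear genes for mitochondrial proteins. Promoters were found for 69 of the 78 members, in 75 windows. The ETS motif was present in 24.0% of the members' windows, against 6.91% of all 32851 windows and 11.7% of the 14866 windows of tested protein-coding genes. The NRF1 motif was present in 13.3%, against 3.74% and 7.01%. The GC box was present in 49.3%, against 32.7% and 55.3%, and CCAAT in 37.3%, against 33.8% and 34.8%. The YY1 motif was in 2.67% and the E-box in 9.33% of the members' windows, against 0.606% and 6.02% of all windows and 0.989% and 7.82% of those of tested genes, and the YY1 share rests on 2 windows. Of the sequences above, Mrpl12 and Mrps21 each hold 1 NRF1 motif, at 81 and 91 bases before the start. Mrpl51 holds an ETS motif and a GC box, and Mrpl47 holds none of the 6 strings. A match is a string of letters, and binding was not measured.

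Totals per library lay between 30980153 and 32569746 normalized counts. These totals follow the authors' scaling, and the number of reads behind them is unknown. Markers of neurons, astrocytes, oligodendrocytes, microglia, endothelium, choroid plexus, mural cells, striatal neurons and blood were all detected, and 0 of these markers were at 0 in every library. Whether every library had its own mouse is not stated, and a p-value here refers to library spread, part of which may be technical. In bulk tissue, fewer cells of a type and less RNA per cell cannot be told apart.

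The members were measured with small spread. Within groups the coefficient of variation of a member had a median of 7.34% and was under 10% for 69 of the 78. Per kilobase of annotated coding transcript the levels ran from 130 normalized counts for Mrpl1 to 2099 for Mrps21, a small-subunit protein with a bacterial counterpart. Mrpl20 (2098) and Mrpl48 (2059), a protein of the large subunit's central protuberance, were next to Mrps21, and Mrpl47 (135) and Mrpl32 (159) were next to Mrpl1. The length of the transcripts in use is not known for these libraries, so these levels per kilobase are approximate. Mrpl3, a core protein of the large subunit whose mean of 1813 normalized counts was the highest of the members, had group means ± SD of 1816 ± 81.9 (WT control, n = 6), 1801 ± 103 (WT shock, n = 5), 1800 ± 86.1 (HT control, n = 6) and 1833 ± 65.2 (HT shock, n = 6). Its group means lay within 1 SD of each other. Of the other members chosen for their mean, Mrpl48 had 1747 ± 42.5, 1798 ± 145, 1746 ± 102 and 1835 ± 44.5 in that order. Mrps5, a core protein at the mRNA entry, had 1575 ± 135, 1536 ± 124, 1642 ± 179 and 1697 ± 62.6. At the low end, Mrps28 had 231 ± 17.9, 233 ± 16.7, 230 ± 16.4 and 240 ± 19.2. For these 3 genes the 4 group ranges overlapped.

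Members shifted together from library to library. For each library, the log2 deviation of every member from its own mean over the 23 libraries was taken, and the median over the 78 was used as a description. In WT shock this median was -0.051, -0.053, -0.052, -0.011 and -0.024 in replicates 1 to 5. In WT control it ran from -0.10 through a median of -0.047 to 0.023. HT shock ran from 0.0059 through 0.10 to 0.13, so that all 6 HT shock libraries lay above all 5 WT shock libraries. HT control was the widest group, from -0.12 through -0.044 to 0.15. Its replicates 1 to 4 lay between -0.12 and -0.039, and its replicates 5 (0.078) and 6 (0.15) lay among or above HT shock. The lowest HT shock library was replicate 6, at 0.0059. Counted over genes, 71 of 78 members were above their own mean in HT control replicate 6, 65 in replicate 5 and 9 to 19 in replicates 1 to 4. In HT shock the count ran from 41 to 72, and in WT shock from 18 to 35. The pattern was not particular to the members. Nuclear-encoded respiratory chain subunits and cytosolic ribosomal proteins had medians of 0.20 and 0.22 in HT control replicate 6. Their medians were 0.097 and 0.096 in HT control replicate 5, and -0.0089 and -0.019 in HT shock replicate 6.

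**Figure D1:**
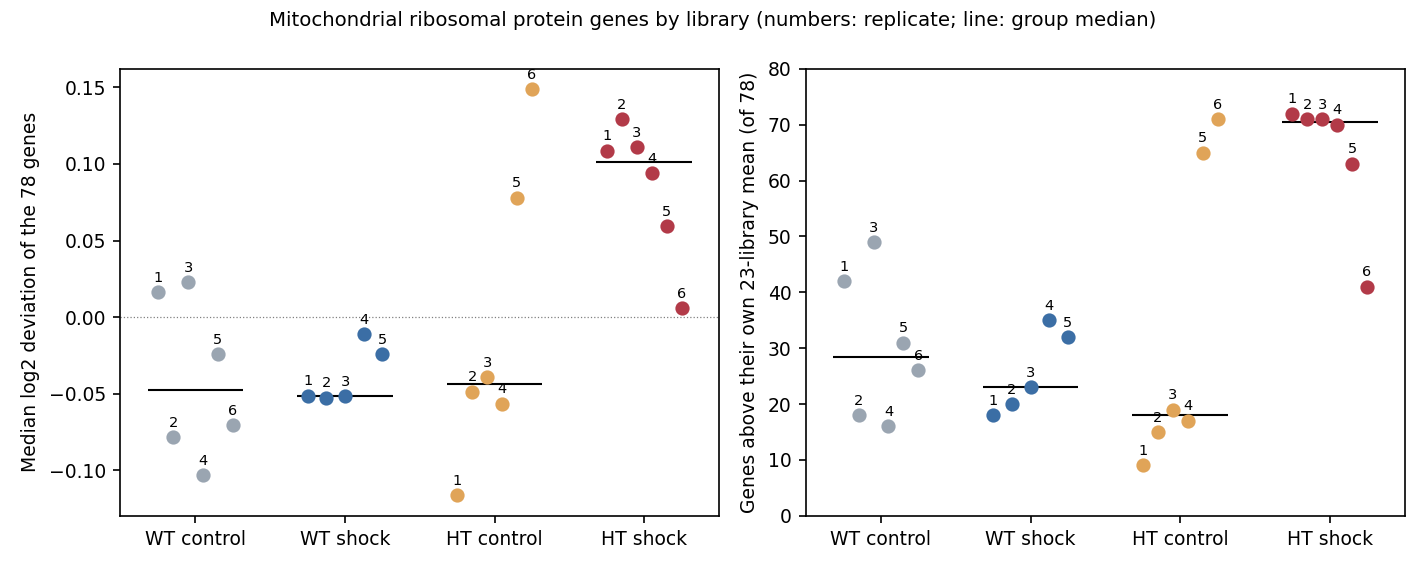
Left, the median log2 deviation of the 78 mitochondrial ribosomal protein genes from their own means, 1 point per library with its replicate number; right, the number of the 78 genes above their own 23-library mean. HT shock replicates 1 to 5 and HT control replicates 5 and 6 sit high, HT shock replicate 6 sits near 0, and the lines are group medians.

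The first comparison asked how the genotypes differed after shock, HT shock against WT shock. Of the 78 members 76 had a higher level in HT shock, with a median log2 difference of 0.14, a level 10.2% higher. Over all 17118 genes the median was 0.0037 and 50.8% were above 0. By limma, 5 members passed an adjusted p of 0.05 as higher and 0 as lower. That is 6.41% of the members, where 3.95% of all genes passed as higher and 9.28% passed in either direction, so the share called was near the background. At an unadjusted p under 0.05, 42 members were higher and 0 lower, where 13.1% of all genes were higher and 27.9% were counted in either direction. The groups did not overlap for 10 members, all higher in HT shock, where 3.75% of all genes were higher without overlap and 4.82% lower. The quartiles of the members lay at 0.087 and 0.17, and their range was -0.07 to 0.37. Large-subunit names (median 0.14, 47 of 49 above 0) and small-subunit names (0.14, 29 of 29 above 0) had the same median to 2 decimals.

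The member with the lowest p was Mrpl38 (ENSMUSG00000020775, GRCm38 chromosome 11, 116131817 to 116138868, minus strand), a mitochondria-specific protein of the central protuberance. WT shock libraries had 1286, 1165, 1268, 1210 and 1104 normalized counts, and HT shock libraries ran from 1336 through a median of 1447 to 1510. The 2 groups did not overlap, while HT control spanned 1210 to 1625 and WT control 1199 to 1421. HT shock was higher by 0.25 ± 0.06 on the log2 scale (SE, limma adjusted p = 0.0231).

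Mrpl47 (ENSMUSG00000037531, chromosome 3, 32725397 to 32737605, minus strand), a protein beside the exit of the tunnel through which new chains leave, had the highest log2 difference, 0.37 ± 0.10 (SE, limma adjusted p = 0.0265). WT shock libraries had 380, 386, 433, 349 and 508 normalized counts and HT shock libraries 496 to 559, with a median of 525. The groups overlapped through WT shock replicate 5 alone. Mrpl12 (ENSMUSG00000039640, chromosome 11, 120484613 to 120489065, plus strand) forms the flexible stalk that recruits translation factors and has also been described as a partner of the mitochondrial RNA polymerase. It had 1254, 1322, 1395, 1330 and 1413 normalized counts in WT shock and 1437 to 1648, median 1568, in HT shock, with no overlap. Its log2 difference was 0.21 ± 0.06 (SE, limma adjusted p = 0.0367).

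Mrpl51 (ENSMUSG00000030335, chromosome 6, 125191801 to 125196269, plus strand), a large-subunit protein without a bacterial counterpart, had 1083, 1218, 1106, 1111 and 1218 normalized counts in WT shock. In HT shock it ran from 1275 through 1316 to 1392, above every WT shock library. It was higher by 0.21 ± 0.07 on the log2 scale (SE, limma adjusted p = 0.0437). Mrps21 (ENSMUSG00000054312, chromosome 3, 95862634 to 95871519, minus strand) was the only called member with a small-subunit name. It had 825, 765, 922, 788 and 811 normalized counts in WT shock and 876 to 960, median 936, in HT shock, and WT shock replicate 3 fell inside the HT shock range. Its log2 difference of 0.18 ± 0.06 lay at the threshold (SE, limma adjusted p = 0.0496), and with each library centred on its median the value was 0.17 (adjusted p = 0.0585). Just outside the threshold were Mrps30 (adjusted p = 0.0511), Mrpl21 (0.0513), Mrpl49 (0.0522) and Mrps18a (0.0529).

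The count of 5 depended on single libraries and on the spread assumed. Only 1 member passed with any of WT shock 1, 2 and 4 or HT shock 1, 2 and 3 left out, 2 members with WT shock 5 or HT shock 4 left out, and 3 with WT control 5 left out. Without WT shock 2 the 1 member was Mrpl39, and none of the 5 named above passed. With WT control 1, HT control 1, HT shock 6 or HT control 6 left out, 8, 9, 13 and 18 members passed, and for the last of these 7.1% of all genes passed as higher. A fit on the HT shock and WT shock libraries alone called 24 members, where 7.33% of all genes were called higher, and library weights called 29, where 9.99% were. Calls over all genes, 1589 with every library, moved with these counts: 422 to 1237 genes were called where 1 member passed, 839 and 851 where 2 did and 1429 where 3 did, and 1609, 1737, 2274 and 2923 genes where 8, 9, 13 and 18 members passed. Over the 23 fits that each left out 1 library, the median difference of the members lay between 0.13 and 0.16. Leaving out a control library cannot change this median, so only the omissions of shocked libraries bear on that range.

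**Figure D2:**
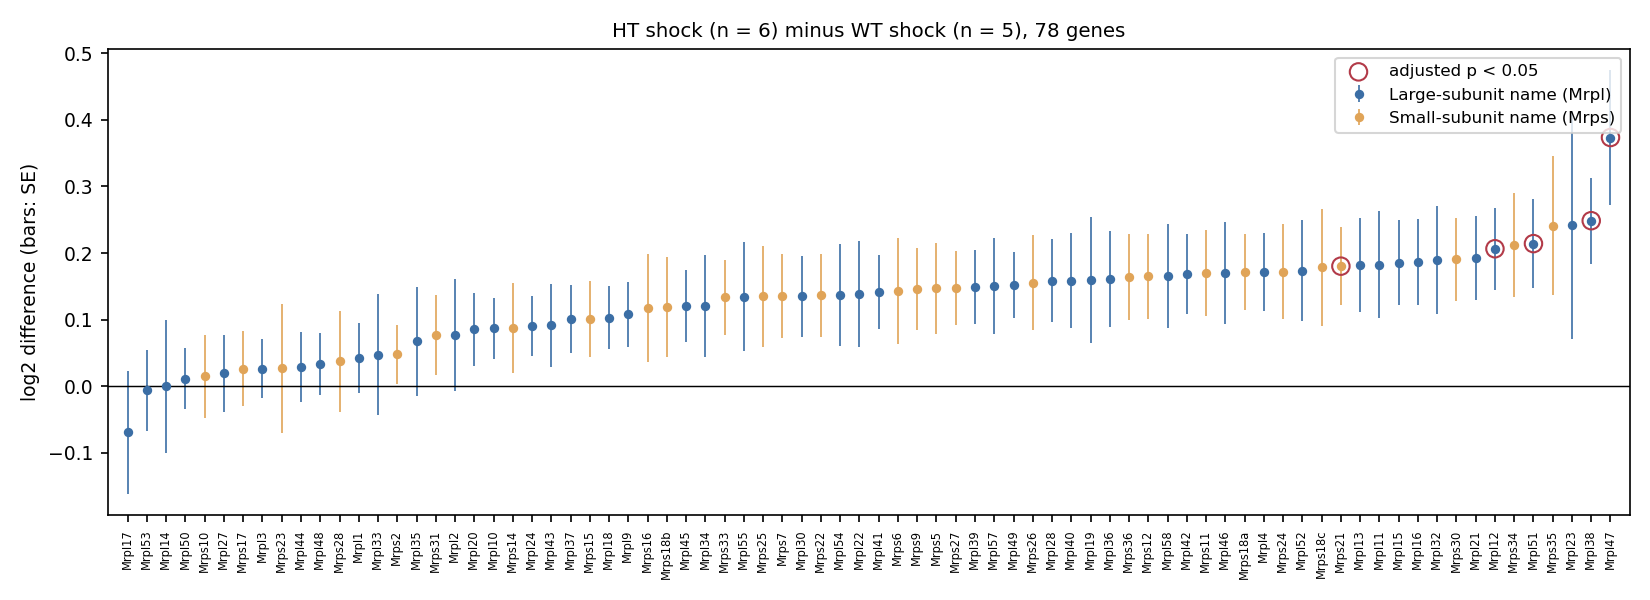
Log2 difference of each of the 78 genes, HT shock (n = 6) minus WT shock (n = 5), with standard errors from limma; blue marks large-subunit names, orange small-subunit names, and red rings the 5 genes with an adjusted p under 0.05. All points but those of Mrpl17 and Mrpl53 lie above 0, and the highest is Mrpl47 at 0.37.

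Members at the low end of this comparison were Mrpl17, Mrpl53 and Mrpl14. Mrpl17, a bacterial-type protein near the tunnel exit, had 736, 662, 615, 785 and 789 normalized counts in WT shock and 596 to 755, median 702, in HT shock, and the ranges overlapped (log2 difference -0.07 ± 0.09 SE, limma adjusted p = 0.665). Mrpl53 had 502, 550, 538, 557 and 569 in WT shock and 511 to 561, median 541, in HT shock (-0.01 ± 0.06, limma adjusted p = 0.963). In WT control Mrpl53 ran from 427 through 487 to 518, and 5 of these 6 libraries lay below all WT shock libraries. Mrpl14 averaged 323 ± 29.0 normalized counts in WT shock (SD, n = 5) and 324 ± 32.4 in HT shock (SD, n = 6).

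**Figure D3:**
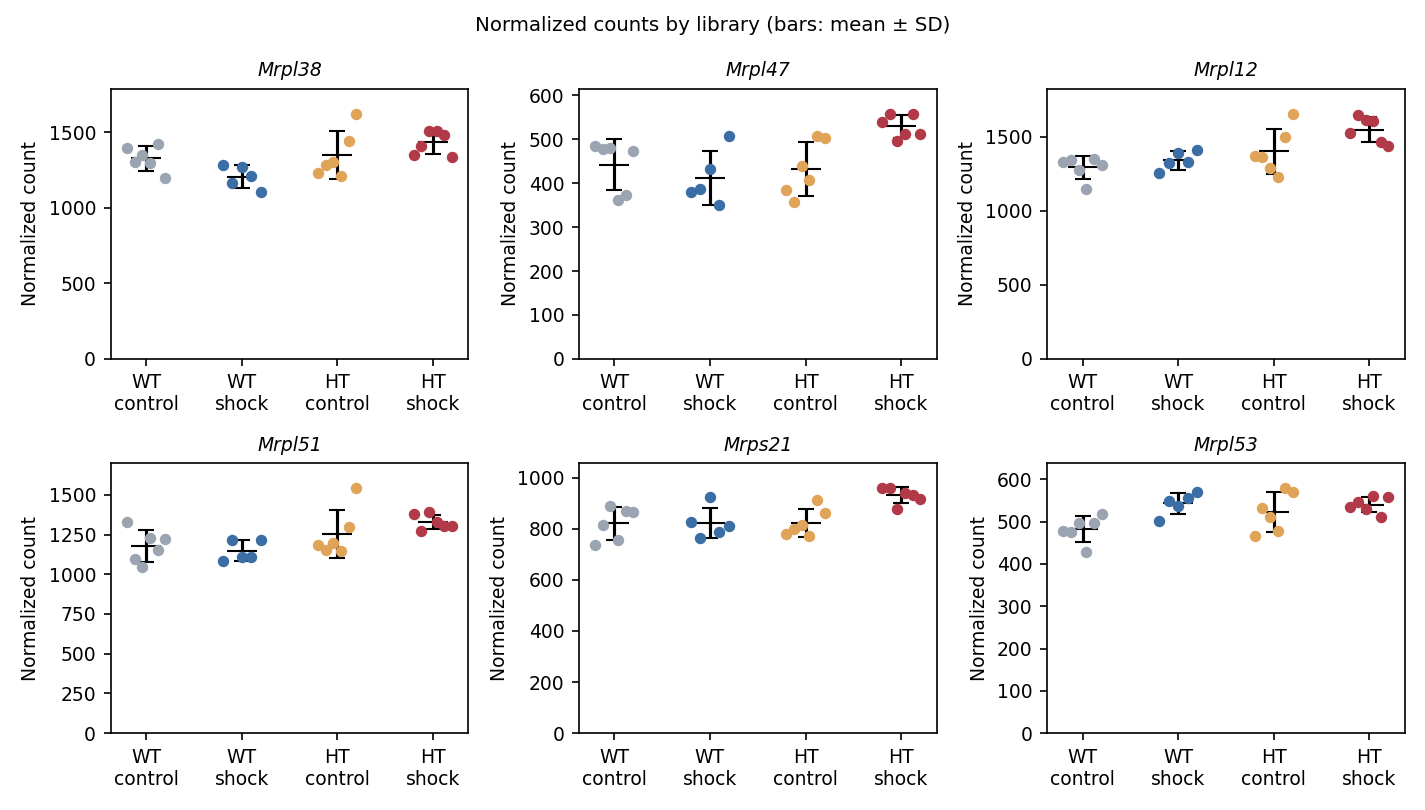
Normalized counts per library of the 5 genes that passed in HT shock against WT shock and of Mrpl53, which did not, with group means and SD (n = 6, 5, 6 and 6). HT shock lies above WT shock without overlap for Mrpl38, Mrpl12 and Mrpl51, and HT control reaches 1625, 1658 and 1544 in replicate 6 for these genes.

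Grouped by place in the ribosome, members at the central protuberance (7 genes, Mrpl18, Mrpl38, Mrpl40, Mrpl46, Mrpl48, Mrpl55 and Mrpl58) were above 0 in 7 of 7, with a median of 0.16. Those of the stalks (Mrpl1, Mrpl10, Mrpl11 and Mrpl12) were above 0 in 4 of 4, with a median of 0.13. Around the tunnel exit and membrane anchor (Mrpl17, Mrpl22, Mrpl23, Mrpl24, Mrpl45 and Mrpl47) 5 of 6 were above 0, with a median of 0.13. Along the mRNA channel of the small subunit (Mrps5, Mrps7, Mrps11, Mrps12 and Mrps24) 5 of 5 were above 0, and these 5 lay close together, between 0.14 and 0.17. Called members numbered 1, 1, 1 and 0 in these groups, where 3.95% of all genes passed as higher. Mrps12, the decoding-site protein of the small subunit, had 885 ± 50.6 normalized counts in WT shock (SD, n = 5) and 991 ± 30.5 in HT shock (SD, n = 6), without overlap (0.16 ± 0.06 SE, limma adjusted p = 0.0926). Mrpl58, a peptidyl-tRNA hydrolase that rescues stalled ribosomes, had 968 ± 27.5 (SD, n = 5) and 1087 ± 66.6 (SD, n = 6), with limma adjusted p = 0.165. Mrps36, named as a member but placed in another complex, had 554 ± 17.4 (SD, n = 5) and 622 ± 40.5 (SD, n = 6), with limma adjusted p = 0.101.

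The 3 Mrps18 paralogues descend from 1 ancestral protein and occupy different sites. In WT (control, then shock) and HT (control, then shock), Mrps18a averaged 993, 1004, 1091 and 1132 normalized counts, Mrps18b 531, 529, 538 and 575, and Mrps18c 355, 339, 356 and 386. The SD within these groups was 25.7 to 84.6 for Mrps18a, 33.7 to 59.9 for Mrps18b and 20.1 to 45.5 for Mrps18c (n = 6, 5, 6 and 6). Between HT shock and WT shock, Mrps18a was higher by 0.17 ± 0.06 (SE, limma adjusted p = 0.0529), Mrps18b by 0.12 ± 0.08 (0.308) and Mrps18c by 0.18 ± 0.09 (0.183). None passed, and the standard errors of the 3 values overlap. Disease-linked members (15 genes, Mrpl12 among them) were above 0 in 15 of 15, with a median of 0.090. Of these 1 passed, where 3.95% of all genes passed as higher.

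The second comparison asked what shock changed in heterozygous brain, HT shock against HT control. Here 77 of 78 members had a higher level after shock, with a median log2 difference of 0.093, a level 6.69% higher, against a median of 0.0030 and 51.0% above 0 over all genes. By limma 0 members passed, and 0% of all genes did. At an unadjusted p under 0.05, 15 members were higher and 0 lower, where 7.0% of all genes were higher and 13.7% were counted in either direction. No member had groups without overlap, where 0.181% of all genes were higher and 0.105% lower without overlap. This comparison and the first share the HT shock libraries.

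The smallest p belonged to Mrps7, a protein of the small subunit's head that contacts mRNA and tRNA. It ran from 971 through 1065 to 1178 normalized counts in HT control and from 1122 through 1210 to 1347 in HT shock, with partial overlap (0.21 ± 0.06 SE, limma adjusted p = 0.235). Mrps21 differed by 0.18 ± 0.06 and Mrpl47 by 0.30 ± 0.10 (limma adjusted p = 0.256 for both). Mrpl17 alone was below 0, at -0.08 ± 0.09 (limma adjusted p = 0.694). Without HT control replicate 6, the HT control library with the highest member median (0.15), 12 members passed as higher and 0 as lower. In that fit 4.49% of all genes passed as higher, and the median was 0.13. The 12 were Mrpl4, Mrpl12, Mrpl28, Mrpl30, Mrpl37, Mrpl41, Mrpl47, Mrpl52, Mrpl57, Mrps7, Mrps21 and Mrps34. With any other single library left out, 0 members passed. With weights estimated for each library and none left out, 27 members passed as higher, where 7.07% of all genes did. HT control replicate 6 had the lowest of these weights, 0.24, so the weighted fit is not independent of the fit without it. Without HT control replicate 6 the difference was 0.24 for Mrps7 (limma adjusted p = 0.0121) and 0.35 for Mrpl47 (limma adjusted p = 0.0216). That library was singled out by the members' own values, and leaving out a control library with high values raises these differences. Its omission therefore adds no support beyond the fit on all libraries.

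The third comparison asked what shock changed in wild-type brain. In WT shock against WT control 39 members were above 0 and 39 below, where 49.8% of all genes were above 0, with a median of -0.00091 and quartiles at -0.043 and 0.038. By limma 0 members passed and 0% of all genes did. At an unadjusted p under 0.05 there were 4 members, 1 higher and 3 lower, where 3.72% of all genes were counted and 2.04% were higher. The 3 smallest p with a higher level belonged to Mrpl53 (0.17 ± 0.06 SE), Mrps25 (0.14 ± 0.08) and Mrpl27, a protein near the peptidyl transferase centre (0.11 ± 0.06). Those with a lower level belonged to Mrpl23 (-0.49 ± 0.17), Mrpl15 (-0.16 ± 0.06) and Mrpl38 (-0.14 ± 0.06), all 6 with limma adjusted p = 0.998. Across the single-library omissions the median stayed between -0.018 and 0.015, and only omissions of wild-type libraries could move it. Groups without overlap numbered 0, against 0.164% of all genes higher and 0.21% lower.

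The unshocked mice gave the fourth comparison, between genotypes. In HT control against WT control 54 members were above 0 and 24 below, where 49.8% of all genes were above 0, with a median of 0.020, and without HT control replicate 6 there were 33 above 0 and a median of -0.0087. By limma 0 members passed and 0% of all genes did. At an unadjusted p under 0.05 there were 5 members, 4 higher and 1 lower, where 11.1% of all genes were counted and 4.96% were higher. No member had groups without overlap, where 0.187% of all genes were higher and 0.234% lower without overlap. Mrps11, a small-subunit protein near the mRNA exit, differed by 0.16 ± 0.06 (SE), Mrps18a by 0.14 ± 0.05 and Mrps27, an RNA-binding protein, by 0.13 ± 0.05, and below 0 were Mrpl23 (-0.42 ± 0.16), Mrpl35 (-0.12 ± 0.08) and Mrpl1, the protein of the mobile L1 stalk (-0.07 ± 0.05). The limma adjusted p values of these 6 ran from 0.394 upward.

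The interaction of genotype and shock tested whether shock acted differently in the 2 genotypes. Of 78 members 72 were above 0, where 49.8% of all genes were, with a median of 0.098. By limma 0 members passed and 0% of all genes did, and at an unadjusted p under 0.05 there were 8 members, all higher, where 3.51% of all genes were higher and 6.43% were counted. Mrpl47 had the smallest p (0.41 ± 0.14 SE, limma adjusted p = 0.705), followed by Mrpl23 (0.66 ± 0.24, 0.713) and Mrpl39 (0.20 ± 0.08, 0.758). Those below 0 with the smallest p were Mrpl53 (-0.12 ± 0.08), Mrpl14 (-0.09 ± 0.14) and Mrpl44 (-0.03 ± 0.07), with limma adjusted p of 0.807, 0.910 and 0.936. None of the 78 interactions passed the adjusted threshold.

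Mrpl23 (ENSMUSG00000037772, chromosome 7, 142532686 to 142540747, plus strand), the protein at the mouth of the exit tunnel, had the lowest mean of the members, 123 normalized counts, and the highest coefficient of variation, 22.2%. It has a processed copy in the table, Mrpl23-ps1, listed at 433 to 628 normalized counts and so above the gene itself in every library, and reads of the 2 cannot be separated with certainty. Mrpl23 ran from 121 through 132 to 197 in WT control and had 106, 75.4, 130, 115 and 98.0 in WT shock. When the values of Mrpl23 and Mrpl23-ps1 were summed, the difference of WT shock and WT control moved from -0.49 to -0.02 ± 0.06 (SE, limma adjusted p = 0.998) and that of HT control and WT control from -0.42 to -0.03 ± 0.05 (limma adjusted p = 0.868). The interaction moved from 0.66 to 0.17 ± 0.08 (limma adjusted p = 0.772). Of HT shock against WT shock the summed value was 0.14 ± 0.06 (limma adjusted p = 0.112), beside a median of 0.14 for the members.

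The shift was accompanied by a difference in how libraries represented short and long transcripts, and transcripts of low and high GC content. Members have short transcripts, with a median of 848 bases against 1563 for tested protein-coding genes, and a similar GC content (51.4% against 51.0%). Here a gene's length is the median over all its annotated transcripts, not over the coding ones used for the levels per kilobase. In each library all genes' deviations were fitted on log2 transcript length and GC content together, and the slope on length was taken. It lay between -0.0023 and 0.028 per doubling of length in WT control, between 0.0054 and 0.024 in WT shock and between -0.038 and 0.0078 in HT shock. In HT control it was -0.055 in replicate 6, -0.025 in replicate 5 and 0.0059 to 0.030 in the others, so that the 7 libraries with the highest member medians, HT shock replicates 1 to 5 and HT control replicates 5 and 6, had the 7 lowest slopes. The slope on GC content per 10 percentage points, from the same fit, was -0.10 to 0.0036 in WT control, -0.053 to 0.011 in WT shock and 0.0046 to 0.076 in HT shock. It was 0.15 in HT control replicate 6 and -0.060 to 0.014 in the other HT control libraries. With each library corrected for transcript length and GC content of all genes, the members' median in HT shock against WT shock was 0.11, with 71 of 78 above 0. Then 4 members passed as higher, where 3.57% of all genes did: Mrpl16, Mrpl32, Mrpl47 and Mrps30. Of the 5 called without the correction 1 was shared, Mrpl47 (0.40, limma adjusted p = 0.0247), and Mrpl38 had 0.16 (0.0526), Mrpl12 0.14 (0.0809), Mrpl51 0.17 (0.0677) and Mrps21 0.13 (0.137). In HT shock against HT control the corrected median was 0.075, with 74 of 78 above 0 and 0 passing, where 0.00584% of all genes passed as higher. The part of RNA quality or library preparation in the result was not tested.

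**Figure D4:**
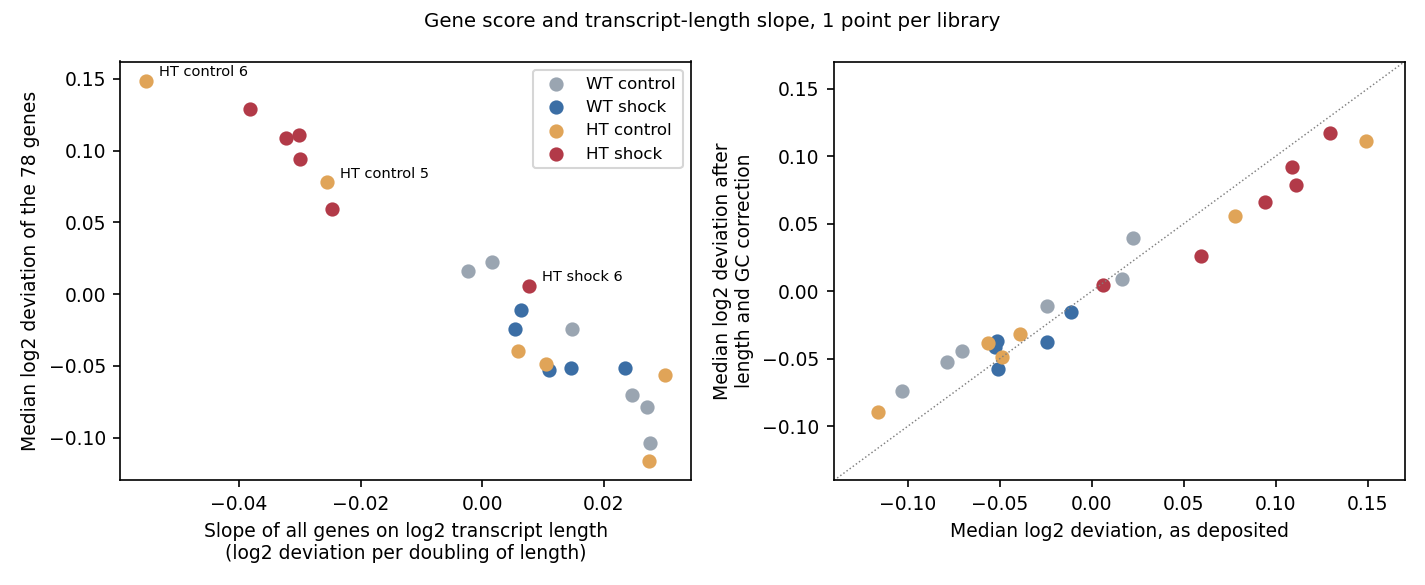
Left, the median log2 deviation of the 78 genes against the slope of all genes on log2 transcript length, 1 point per library; right, the same median before and after correction for length and GC content, with the line of equality dotted. HT shock 1 to 5 and HT control 5 and 6 have the lowest slopes and the highest medians, and after correction HT shock medians run from 0.0047 to 0.12 and WT shock medians from -0.058 to -0.015.

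Other genes of the same pathway were followed from lists. Beside the calls below, 3.95% of all genes passed as higher in HT shock against WT shock. The 5 mitoribosomal proteins with other names were all above 0 in HT shock against WT shock, with a median of 0.15, and 2 of 5 rose: Gadd45gip1, a large-subunit protein (0.21 ± 0.06 SE, limma adjusted p = 0.0230), and Ptcd3, a small-subunit protein with pentatricopeptide repeats (0.15 ± 0.04, 0.0324). Of 26 factors that assemble the mitoribosome or modify its RNA, 16 were above 0, with a median of 0.037, and 2 rose, Dhx30 (0.17 ± 0.05, limma adjusted p = 0.0282) and Mtg2 (0.20 ± 0.06, 0.0493), an RNA helicase and a GTPase. Of 16 mitochondrial translation factors 13 were above 0, with a median of 0.11, and 1 rose, Mtfmt, which formylates the initiator tRNA (0.22 ± 0.06, limma adjusted p = 0.0354). Of 20 mitochondrial aminoacyl-tRNA synthetases and related enzymes 12 were above 0, with a median of 0.018, and 1 rose, the valyl-tRNA synthetase Vars2 (0.34 ± 0.08, limma adjusted p = 0.0179). Of 7 genes of mitochondrial transcription 4 were above 0, with a median of 0.0076 and none called. No gene of these 5 lists passed as lower, and none passed in the other 4 contrasts.

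The products and partners of the mitoribosome lay on both sides of 0. Over all genes, 3.95% passed as higher and 913 of 17118 as lower in HT shock against WT shock. Of 13 protein genes in mitochondrial DNA, whose mRNAs this ribosome translates, 6 fell in HT shock against WT shock and 0 rose, with a median of -0.15. They included mt-Co1 (-0.22 ± 0.05 SE, limma adjusted p = 0.0129), mt-Nd5 (-0.37 ± 0.08, 0.0134), mt-Nd4 (-0.20 ± 0.05, 0.0160) and mt-Nd2 (-0.26 ± 0.06, 0.0166), subunits of complexes IV and I. Of 78 nuclear-encoded subunits of the respiratory chain and ATP synthase 73 were above 0, with a median of 0.11, and 10 rose and 0 fell. Cytosolic ribosomal proteins had a median of 0.090, with 76 of 82 above 0, 4 rising and 0 falling. The members' median was 0.14, and the difference between lists was not tested. In HT shock against HT control the mitochondrially encoded genes had a median of -0.039, the nuclear respiratory subunits 0.077 and the members 0.093. In HT control against WT control the mitochondrially encoded genes were below 0 in 13 of 13, with a median of -0.22, while the members' median was 0.020.

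**Figure D5:**
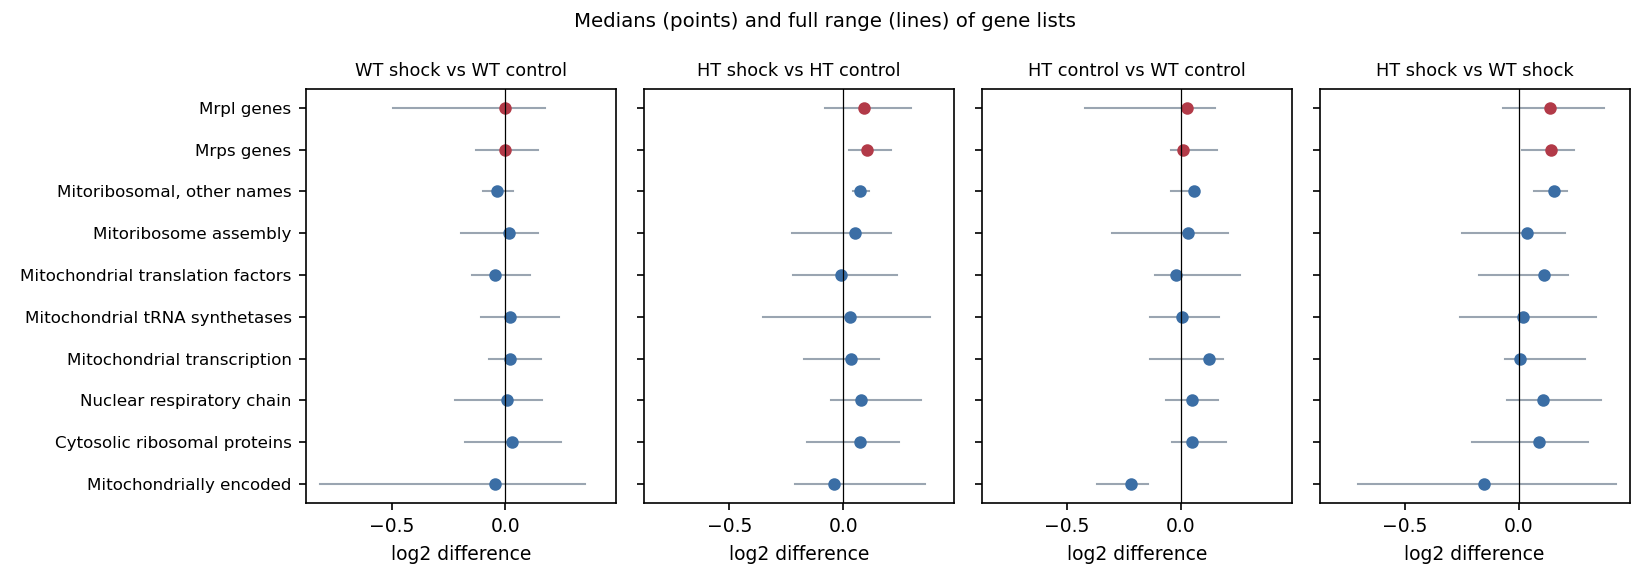
Median (point) and full range (line) of the log2 differences of the members, in red, and of 8 related gene lists, in blue, in 4 comparisons. In HT shock against WT shock the members lie at 0.14 and the mitochondrially encoded genes at -0.15.

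Cell type markers moved in HT shock against WT shock and in other comparisons. In HT shock against WT shock 3.95% of all genes passed as higher and 913 of 17118 as lower. Of 6 neuron markers 5 were above 0 in HT shock against WT shock, and 2 rose, Slc17a7 (0.25 ± 0.05 SE, limma adjusted p = 0.00450) and Stmn2 (0.13 ± 0.04, 0.0363). The summed normalized counts of the neuron markers were 185455 to 209350 in HT shock against 175831 to 193941 in WT shock. Of 6 oligodendrocyte markers 4 fell and 0 rose, with a median of -0.25, and their sums were 179833 to 224539 against 217249 to 273164. Of 6 striatal markers 3 fell and 0 rose (Drd2, Adora2a and Drd1), with a median of -0.37 and sums of 11402 to 17486 against 16649 to 18186. Of the astrocyte, microglia, endothelial, choroid plexus and ependymal, mural and blood markers none passed. Endothelial markers were above 0 in 1 of 6 (median -0.20), blood markers in 0 of 5 (-0.22) and astrocyte markers in 2 of 6 (-0.082). Microglia markers were above 0 in 6 of 6 (0.072), choroid plexus and ependymal markers in 5 of 6 (0.062) and mural markers in 3 of 6 (0.023). In HT shock against HT control no marker passed: the neuron markers were above 0 in 6 of 6 (median 0.053), the oligodendrocyte markers in 0 of 6 (median -0.072) and the striatal markers in 0 of 6 (median -0.20). In WT shock against WT control the neuron, oligodendrocyte and striatal markers were above 0 in 1, 6 and 0 of 6. Their medians were -0.026, 0.12 and -0.057. In HT control against WT control they were above 0 in 2, 2 and 0 of 6, with medians of -0.025, -0.057 and -0.20. Medians of the remaining marker lists there were 0.47 for choroid plexus and ependyma, 0.26 for microglia and 0.18 for mural cells. Those of blood, endothelium and astrocytes were 0.16, 0.074 and -0.013. For WT shock against WT control the values, in this order, were 0.37, 0.12, 0.12, 0.25, 0.16 and 0.057. From HT control to HT shock they lay between -0.090 and -0.038. No marker passed against WT control. The part of cell composition in the members' shift was not tested.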

How the data were processed

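Brain RNA of 23 libraries was prepared with a stranded mRNA kit, per the labels' protocols. The authors deposited 1 table whose values are a signal per gene and library, counts normalized between libraries and not whole numbers. The submitters' processing notes name GRCm38 as the build, and as tools DESeq2 1.26.0, Salmon 1.1.0 and R 3.6.2, without saying what each was used for. Of 24 library columns 1 matched no sample label and was not used. Whole reads could not be recovered (24.5% to 61.2% of values under 15 lay within 0.1 of a whole multiple), so that depth is unknown and no count model was used, although one had been planned for raw counts.

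Symbols were found for 18563 of 18578 gene identifiers, with positions from GENCODE M21 (GRCm38). The 17118 genes averaging 10 or more were fitted in log2(normalized count + 1) with limma 3.58.1 (statmod 1.5.0, R 4.3.3), with all 4 groups in 1 fit, a trended and robust variance, and Benjamini-Hochberg adjustment over all genes tested. Differences are on the log2(value + 1) scale and understate those of low genes. The procedure was tested on simulated data with changes larger than those of the members in HT shock against WT shock. Shifts shared between genes were not simulated, so that test does not cover differences as small as these. In WT shock, replicate numbers are those of the sample titles.

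Members and lists, including the groups by place in the ribosome, were chosen with earlier results of these data known. Named in each comparison were the members past an adjusted p of 0.05 or, failing that, the 3 members of smallest p above 0 and the 3 below 0. Levels were given for the 3 highest and 3 lowest means, the Mrps18 paralogues, Mrpl12, Mrpl58, Mrps12 and Mrps36. From other lists at most 4 genes past the threshold were named. Members named beyond this rule, such as those nearest the threshold, were chosen after their values were seen. Names matching cytosolic ribosomal proteins that belong to S6 kinases or Rps19bp1 were removed.

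Alternatives were median centring, no filter or a filter of 20 in at least 5 libraries, pseudocounts of 0.5 and 5, a fit on the compared groups only, replicate blocks, library weights, a correction for transcript length and GC content, an adjusted p of 0.1, and leaving out each library. Summing Mrpl23 with its copy was added after seeing the data. Promoter windows came from RefSeq (GRCm38.p6).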

Additional observations from a re-analysis of the deposited data

Results flagged for a closer look

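Among 120 groups of libraries checked over the named genes, 6 held a library set apart from the rest of its group, where chance alone sets apart about 1 in 20. HT control replicate 6 had 488.1 normalized counts of Mrpl1, with the other 5 libraries between 409.0 and 437.5. The same library had 437.4 of Mrps18c, with the others between 324.1 and 365.1. HT shock replicate 5 was low for Mrps18c, at 298.4 against 380.3 to 423.4. HT shock replicate 1 had 180.2 of Mrpl23, against 107.2 to 124.3 in the other 5. HT shock replicate 3 had 1820 of Mrps5, against 1652 to 1705, and WT control replicate 4 had 1147 of Mrpl12, against 1278 to 1350.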

How the results depend on the processing

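In HT shock against WT shock the 5 members called became 4 with median centring, without a filter or with the length and GC correction. The count became 8 with the stricter filter, 24 with only the compared groups, 29 with library weights and 21 at an adjusted p under 0.1. All members called in these fits were higher. Over all genes, 1589 calls became 1664 with the stricter filter, 2932 with only the compared groups, 3775 with library weights and 3092 at the looser threshold. Leaving out 1 library gave counts of 1 to 18, with 422 to 2923 calls over all genes. The medians were 0.13 to 0.16 and could move only where a shocked library was left out. In HT shock against HT control 27 members were called with library weights, and leaving out 1 library gave 0 to 12. The other 3 contrasts called no member under any alternative run. Mrpl1 in HT control against WT control turned from -0.07 to 0.0069 with the length and GC correction. The causes of these changes were not tested.

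With the replicate block by title numbers 0 members (450 genes) were called in HT shock against WT shock, and with the numbers of the library names 3 (976 genes). Little sign of pairing by number was seen, though low correlations cannot exclude it. By title numbers, 5 of 33 same-numbered pairs had a correlation of deviations over 0.1 (median 0.016). Of 23 libraries, 4 correlated best with their own number. Depth is unknown, so counting error could not be separated from other spread.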

Other observations

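Many of the members have an annotated start close to that of a neighbour transcribed in the opposite direction. Whether such pairs share a promoter was not tested. Of the 78 genes 22 (28.2%) had a protein-coding partner on the other strand whose start lay within 1000 bases, against 9.99% of 14912 tested protein-coding genes. Of the 22 partners, none of them a member, 17 were above 0 in HT shock against WT shock, with a median log2 difference of 0.081. By limma 1 of the 22 partners rose, where 3.95% of all genes passed as higher. It was Apba3, the neighbour of Mrpl54 (0.29 ± 0.09 SE, limma adjusted p = 0.0387). Some partners had values of the other sign than their member: Mrpl44 was at 0.03 and its partner Wdfy1 at -0.23, and Mrpl51 was at 0.21 and its partner Ncapd2 at -0.06.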
